A study of Mus musculus with 3 samples.

Results

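Ear2, Rnase2a and Rnase4 are 3 genes of the RNase A family of secreted ribonucleases. They were taken by symbol from the 13242 genes of a single-cell count table of macrophages from injured mouse muscle, and were followed across the 3 treatments and the authors' 9 clusters of cells. The genes were chosen with their counts in these libraries known, so their levels are given as a description, with no test. The clusters were themselves drawn from the expression of these cells, so a gene's rank in a cluster is partly set in advance.

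Mouse quadriceps lost a piece of muscle at surgery (volumetric muscle loss), and macrophages were sorted from the muscle 1 week later. The wounds had been given urinary bladder matrix (UBM, a decellularised scaffold), polycaprolactone (PCL, a synthetic polyester) or saline. All 3 groups carried the same injury, and 1 droplet library was made for each, so a difference between treatments cannot be told apart from one between libraries, sorts or animals. The labels used here give no strain, sex, age or number of mice. The UBM library held 2280 cells, the PCL library 1753 and the saline library 341, with 14586276, 11006118 and 1888343 unique molecular identifiers (UMIs, each tagging 1 captured RNA molecule) in that order and medians of 4594 to 5662 UMIs per cell. Levels are UMIs of a gene per 1000000 UMIs (CPM), and 95% intervals cover counting error only. The letters of the cluster names (R1, R2, R3, RP1, RP2, RP3, F1, F2, FP1) are not explained in the labels. Cluster R2 had 254 cells, all from UBM. The 10 macrophage markers listed were found in all 3 libraries, with summed levels of 17460 CPM in UBM, 23226 CPM in PCL and 32266 CPM in saline. Cluster F2, with 56 cells, carried neutrophil markers at a summed 50034 CPM. Between libraries, 6 cell barcodes recurred, which touched 12 cells, and 1 UBM cell with Ear2 and 1 with Rnase2a were among them.

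The RNase A family is made of small secreted proteins that cut RNA, held together by disulfide bonds and blocked inside cells by the ribonuclease inhibitor Rnh1. Mouse Ear genes (eosinophil-associated ribonucleases) and Rnase2a, also named Ear11, are relatives of the human eosinophil-derived neurotoxin, and were first known from eosinophils but are also made by some macrophages. In mice, Rnase2a is known as a gene that IL-4 and IL-13 induce in macrophages, and its protein as an attractant of macrophages. Rnase4 is a broadly expressed member that cuts RNA after uridine, and it shares its promoters with its neighbour Ang (angiogenin), a ribonuclease known for inducing vessel growth.

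All 3 genes lie on chromosome 14. In the GRCm38 annotation used here (GENCODE M21), Ear2 (ENSMUSG00000072596.4) spans chr14:44102654-44103534 on the plus strand, Rnase2a (ENSMUSG00000047222.7) spans chr14:51255262-51256112 on the minus strand and Rnase4 (ENSMUSG00000021876.15) spans chr14:51091077-51106151 on the plus strand. Rnase2a thus lies 149110 bases beyond the end of Rnase4 and 7151727 bases beyond the end of Ear2. The coding sequences of Ear2 (471 bases) and Rnase2a (468 bases) were identical at 80.0% of aligned columns, against 49.6% for Ear2 and Rnase4 and 51.6% for Rnase2a and Rnase4. The 250 bases before each gene's start, from RefSeq on GRCm38.p6, are shown because the 2 closest relatives have like upstream sequence and unlike levels across the libraries. Each is written 5′ to 3′ on the gene's own strand, and capitals mark runs of at least 15 bases found in both the Ear2 and the Rnase2a windows. The regions are chr14:44102404-44102653 for Ear2, chr14:51256113-51256362 for Rnase2a and chr14:51090827-51091076 for Rnase4.
Ear2: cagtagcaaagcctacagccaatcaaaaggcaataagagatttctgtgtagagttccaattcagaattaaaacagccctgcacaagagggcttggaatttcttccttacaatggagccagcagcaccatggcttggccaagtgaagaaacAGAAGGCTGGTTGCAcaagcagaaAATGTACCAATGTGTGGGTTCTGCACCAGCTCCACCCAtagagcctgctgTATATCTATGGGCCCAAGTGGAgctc
Rnase2a: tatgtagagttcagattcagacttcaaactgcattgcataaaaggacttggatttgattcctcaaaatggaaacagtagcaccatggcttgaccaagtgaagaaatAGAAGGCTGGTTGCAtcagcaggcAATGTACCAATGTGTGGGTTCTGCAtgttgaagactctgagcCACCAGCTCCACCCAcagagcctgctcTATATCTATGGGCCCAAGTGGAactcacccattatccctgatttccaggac
Rnase4: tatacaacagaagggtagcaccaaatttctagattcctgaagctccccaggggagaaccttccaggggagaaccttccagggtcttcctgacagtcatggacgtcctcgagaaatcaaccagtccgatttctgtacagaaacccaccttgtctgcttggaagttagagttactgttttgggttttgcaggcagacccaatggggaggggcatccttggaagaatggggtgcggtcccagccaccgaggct

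The Ear2 and Rnase2a windows aligned over 223 columns, of which 177 (79.4%) were identical. The longest stretch of capitals in Ear2 was 38 bases, from 76 to 39 bases before the start. It is made of overlapping runs of 25 and 15 bases, which lie apart in Rnase2a. The longest run found whole in both windows was thus 25 bases. A run of 22 bases ended 5 bases before the start of Ear2 and 30 bases before the start of Rnase2a. The best local alignment of the Rnase4 window with the Ear2 window was 14 columns. The Rnase4 window was identical to that of Ang, and RefSeq lists a second Rnase4 start further downstream. Searched on both strands, the STAT6-type motif was found in 5.85% of the 32851 windows of this length and TTCNNNGAA, the like motif with a spacer 1 base shorter, in 7.02%, and neither occurs in the 3 windows shown. GAGGAA, the core of PU.1 sites, was found in 23.3% of all windows and once here, on the minus strand of the Rnase2a window 193 to 188 bases before the start, overlapping no other motif searched. TATAAA was found in 12.4% of all windows and in none of the 3.

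Near-identical copies limit how surely UMIs are assigned. Ear2 is identical to Ear10 at 97.0% and to Ear1 at 95.1% of aligned coding columns. Of the 98-base windows of its transcript, 14.1% also occur in Ear10 or the pseudogene Ear-ps2, and none of those in its last 300 bases do. At 50 bases the share was 41.5%, and 38.2% in the last 300 bases. Ear2 counts are therefore uncertain against these copies. Rnase2a had no shared window at either length, and Rnase4 shared 0.563% of its 98-base windows, with Ang, and none in its last 300 bases. The labels do not state the read length. The library chemistry reads 3′ ends, so the counts of the 3 genes are not ranked against each other.

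Rnase2a separated the UBM library from the others. It had 4150 UMIs in 408 of 2280 UBM cells (285 CPM, interval 276 to 293), 2 UMIs in 2 of 1753 PCL cells and 0 UMIs in 341 saline cells. A count of 0 in saline allows up to 1.59 CPM (3 UMIs), so UBM was at least 179-fold higher than saline. PCL had 0.182 CPM and was 1566-fold lower than UBM (433 to 12933). With at most 2 UMIs in either, PCL and saline could not be compared at this depth. Cells with a UMI were 17.9% of UBM cells (16.3 to 19.5, exact binomial), 0.114% of PCL cells and 0 of 341 saline cells, where 3 cells, the limit used for a count of 0, would be a share of 0.880%. When every cell was thinned to 2500 UMIs and 395 shallower cells were left out (162 UBM, 154 PCL and 79 saline), the shares were 13.8% in UBM, 0.0625% in PCL and 0 in saline. The UMIs were spread unevenly over UBM cells, with a median of 4 in cells that had any, up to 77 in 1 cell, and 52 cells holding 50% of the total. The single most loaded cell held 1.86% of them.

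Ear2 followed another order. It had 2143 UMIs in 325 UBM cells (147 CPM, 141 to 153), 45 UMIs in 24 PCL cells (4.09 CPM, 2.98 to 5.47) and 254 UMIs in 51 saline cells (135 CPM, 118 to 152). The ratio of UBM to saline was 1.09 (0.959 to 1.25), and PCL was 32.9-fold lower than saline (23.9 to 46.2) and 35.9-fold lower than UBM (26.8 to 49.4). The clusters in each library bear on these values. With 10 CPM added, the log2 ratio of UBM to saline was 0.12. Without the clusters F2 and R3 it was -0.20, so its direction is not settled. It was 0.89 with equal weight for F1, FP1, RP2 and RP3, the 4 clusters that had 20 or more cells in each library. These 4 leave out R3 and also R1, which held 1105 of the 2143 Ear2 UMIs in UBM and 186 of the 254 in saline. With that equal weight the log2 ratio of PCL to saline was -1.82 in place of -3.36, and that of PCL to UBM was -2.72 in place of -3.48. Cells with a UMI were 14.3% of UBM cells, 1.37% of PCL cells and 14.96% of saline cells, and after thinning 11.2%, 0.625% and 14.1% in that order. In PCL, 1 cell held 13 of the 45 UMIs, or 28.9%. In saline, 11 cells held 50% of the UMIs, so its level rests on few cells.

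Rnase4 was found in all 3 libraries. It had 3222 UMIs in UBM (221 CPM, 213 to 229), 807 in PCL (73.3 CPM, 68.4 to 78.6) and 223 in saline (118 CPM, 103 to 135). UBM was 1.87 times saline (1.63 to 2.15), PCL was 0.621 times saline (0.535 to 0.723) and PCL was 0.332 times UBM (0.307 to 0.359). Cells with a UMI were 40.4% in UBM, 31.0% in PCL and 33.1% in saline, and after thinning 27.5%, 16.1% and 20.6% in that order. No single cell held over 3.14% of its UMIs in any library.

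A size rule called a gene where its CPM, each with 10 added, differed at least 2-fold and the higher of the pair reached 50 CPM. By it 1 of the 3 genes (Rnase2a) was higher in UBM than in saline, beside 3.89% of 2753 genes measured, and 0 were lower, beside 6.21%. In PCL against saline, Ear2 was lower, beside 3.36% of 2829 genes, and 0 were higher, beside 4.21%, with Rnase2a below the minimum. In PCL against UBM, all 3 were lower, beside 2.85% of 2772 genes, and 0 were higher, beside 5.88%. The comparisons share libraries and the genes were chosen on these counts, so nothing is read from these counts.

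**Figure D1:**
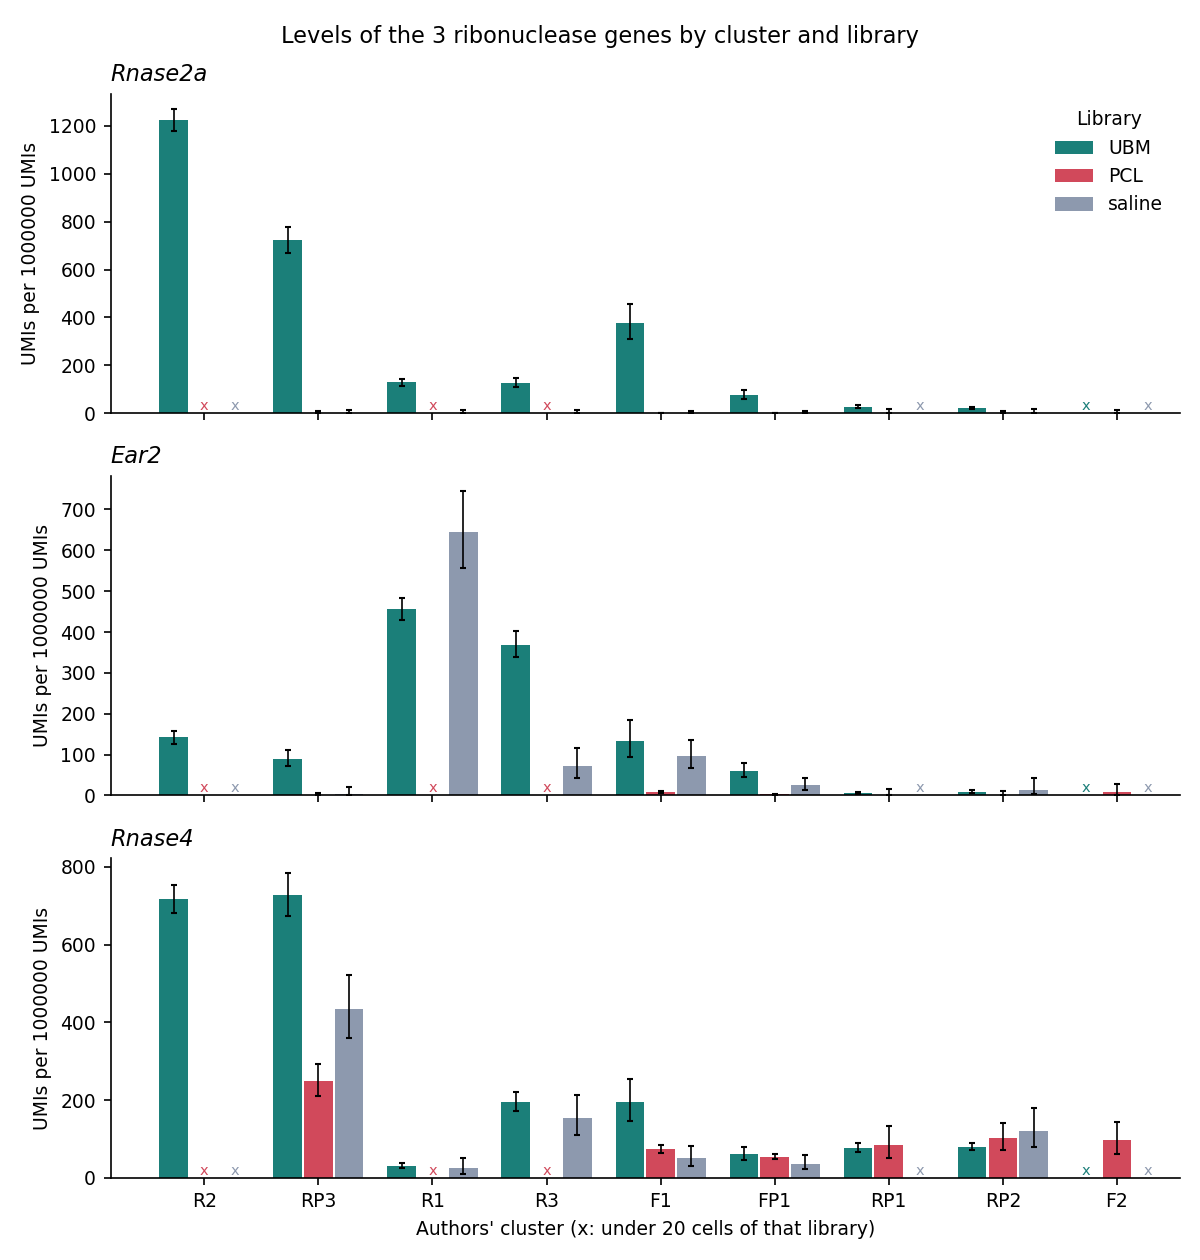
UMIs per 1000000 UMIs of Rnase2a, Ear2 and Rnase4 in each of the authors' clusters, for the UBM, PCL and saline libraries. Bars are summed levels, lines are 95% Poisson intervals and x marks groups with under 20 cells; Rnase2a reached 1224 CPM in UBM R2 and was near 0 in every PCL and saline bar, Ear2 was highest in R1 and Rnase4 in RP3 and R2.

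Within clusters, Rnase2a ran from 1224 CPM in UBM R2 (1178 to 1272) through 722 CPM in RP3 (670 to 778) and 377 CPM in F1 (308 to 456) to 129 CPM in R1, 126 CPM in R3 and 75.6 CPM in FP1. It was 26.2 CPM in RP1 and 21.1 CPM in RP2. The intervals of R1 and R3 overlapped, as did those of RP1 and RP2, and the others in this order up to FP1 were apart. R2 held 2648 of the 4150 UMIs and 150 of its 254 cells (59.1%) had a UMI, against 6.41% of cells in RP2, the lowest share. The median depth was 8365 UMIs per cell in R2 and 5383 in RP2, and after thinning the shares were 52.8% in R2 and 2.95% in RP2. How much of the low shares in RP1 and RP2 came from free RNA in the droplets was not tested. Over all libraries R2 was 20.6 times all other cells, and Rnase2a ranked 3 of 2712 genes by the log2 ratio, where 4.94% of genes were at least 2-fold higher. R2 holds UBM cells and the other cells include the PCL and saline libraries, and against the other UBM cells the log2 ratio with 10 CPM added was 3.24 in place of 4.15.

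In most clusters present in more than 1 library, Rnase2a was again higher in UBM. In RP3, 72 of 200 UBM cells (36.0%) had a UMI, against 1 of 92 PCL cells and 0 of 68 saline cells. Its level there was 722 CPM in UBM, 1.72 CPM in PCL and 0 in saline, where UBM was at least 64.7-fold higher than saline. The same bound for UBM against saline was 44.1-fold in F1, 12.4-fold in R1, 12.3-fold in FP1 and 10.3-fold in R3, but 1.45-fold in RP2, where UBM itself had 21.1 CPM. In RP1 and RP2, PCL had 0 UMIs and was at least 1.94-fold and at least 2.41-fold lower than UBM, so a wider gap could not be shown there at this depth. F1 had 455 PCL cells and FP1 had 1036, with 0 and 1 Rnase2a UMIs, against 104 UMIs in 43 UBM F1 cells and 60 UMIs in 99 UBM FP1 cells. The PCL and saline libraries thus had few or no UMIs of Rnase2a also in clusters where UBM cells had many.

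Ear2 was highest in R1, at 456 CPM in UBM (429 to 484) and 645 CPM in saline (556 to 745), while PCL had 14 R1 cells and 1 UMI. In R1, 143 of 289 UBM cells (49.5%) and 32 of 46 saline cells (69.6%) had a UMI, and after thinning 39.9% and 61.5% did. In UBM the order went on with R3 at 369 CPM, R2 at 142 CPM, F1 at 134 CPM, RP3 at 89.7 CPM and FP1 at 60.5 CPM, down to RP2 at 9.53 CPM and RP1 at 5.61 CPM. Neighbours from R2 to FP1 had overlapping intervals, as had RP2 and RP1. In RP1, 1.57% of UBM cells had a UMI at a median depth of 4249.5 UMIs, beside 7461 in R1, and 1.20% after thinning. In saline, F1 at 96.8 CPM and R3 at 73.2 CPM came after R1, with overlapping intervals. In PCL no cluster of at least 20 cells was above 8.06 CPM. R1 was 9.82 times all other cells for Ear2, rank 2 of 2605 genes, where 1.96% of genes were at least 2-fold higher. Within UBM, which leaves out the low PCL library, the log2 ratio with 10 CPM added was 2.29 in place of 3.05. For Ear2, R3 was 4.11 times all other cells, rank 25 of 2687 genes, where 3.65% of genes were at least 2-fold higher. Since the clusters rest on the same counts, these ranks only describe the grouping.

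UBM and saline differed in opposite ways in single clusters, beside a whole-library ratio of 1.09. UBM was 0.707 times saline in R1 (0.604 to 0.830), 5.04 times in R3 (3.16 to 8.58), 2.46 times in FP1 (1.29 to 5.09) and 24.1 times in RP3 (4.21 to 962, from 1 saline UMI). In R3, UBM had 507 UMIs in 64 of 173 cells, 83 of them in 1 cell. Saline R3 had 18 UMIs in 3 of 37 cells, 12 of them in 1 cell. In FP1, UBM had 48 UMIs in 13 of 99 cells and saline 12 UMIs in 4 of 72 cells, 8 of them in 1 cell. Muscle fibre markers were also unlike in R3, where 7 of the 8 listed were found in UBM and 8 of 8 in saline, at a summed 334 CPM in UBM and 4347 CPM in saline, with Mb at 0 in UBM. Their sum was also lower in UBM than in saline in FP1 (3.78 CPM in UBM and 40.9 CPM in saline), in RP3 (54.6 CPM in UBM and 305 CPM in saline) and in R1 (4.54 CPM in UBM and 45.1 CPM in saline). The dendritic cell markers listed were also unlike in R1, where 7 of the 8 in the table were found in UBM and 5 of 8 in saline, at a summed 123 CPM in UBM and 728 CPM in saline. Cd209a gave most of this, at 61.5 CPM in UBM and 496 CPM in saline, and Ccr7 was at 0 in both. The 5 T and NK cell markers in the table summed to 257 CPM in UBM R1 and 62.4 CPM in saline R1. The part of these markers in the Ear2 differences was not tested.

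Rnase4 was highest in RP3 in every library, next to R2 in UBM. RP3 had 728 CPM in UBM (675 to 783), 250 CPM in PCL (211 to 294) and 436 CPM in saline (360 to 522), and R2 had 717 CPM (682 to 754), which overlapped UBM RP3. UMIs were found in 92.1% of R2 cells, and in RP3 in 82.5% of UBM cells, 80.4% of PCL cells and 75.0% of saline cells. After thinning, RP3 shares were 73.1% in UBM, 47.0% in PCL and 71.4% in saline. R1 was lowest, at 30.9 CPM in UBM and 24.3 CPM in saline. Within RP3, UBM was 1.67 times saline (1.37 to 2.05) and PCL 0.574 times saline (0.446 to 0.738). In FP1, PCL was 0.907 times UBM (0.670 to 1.25), in RP1 1.11 times (0.656 to 1.78) and in RP2 1.28 times (0.873 to 1.81). The Rnase4 gap between PCL and UBM was thus not seen in these clusters. In F1, PCL was 0.373 times UBM (0.275 to 0.513), and in RP3 0.343 times (0.285 to 0.411). RP3 was 4.16 times all other cells for Rnase4 and 2.87 times for Rnase2a, where 6.09% of genes were at least 2-fold higher. R2 was 6.72 times all other cells for Rnase4.

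Whether Ear2 and Rnase2a were in the same cells could be asked in UBM alone, since Rnase2a had UMIs in 2 PCL cells and in 0 saline cells. Of 325 Ear2 cells in UBM, 127 (39.1%) also had Rnase2a, and these were 31.1% of the 408 Rnase2a cells. Droplets with more than 1 cell would also hold both genes. Doublets were not removed, and Scrublet, a doublet caller, called 1 of the 2280 UBM cells, too few to show it had worked, so their part in these counts was not tested. If the 2 genes were spread over UBM cells independently of each other, 58.2 cells would hold both, and 80.3 if they were so within each cluster, so 127 was 1.58 times the within-cluster count. Cells with both had more RNA to sample, with a median of 7385 UMIs, against 6764.5 in cells with Ear2 only, 7005 in cells with Rnase2a only and 5064 in cells with neither. After thinning, 72 cells held both, against 42.0 within clusters, a ratio of 1.71. These counts describe cells of 1 library, which are not replicates.

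**Figure D2:**
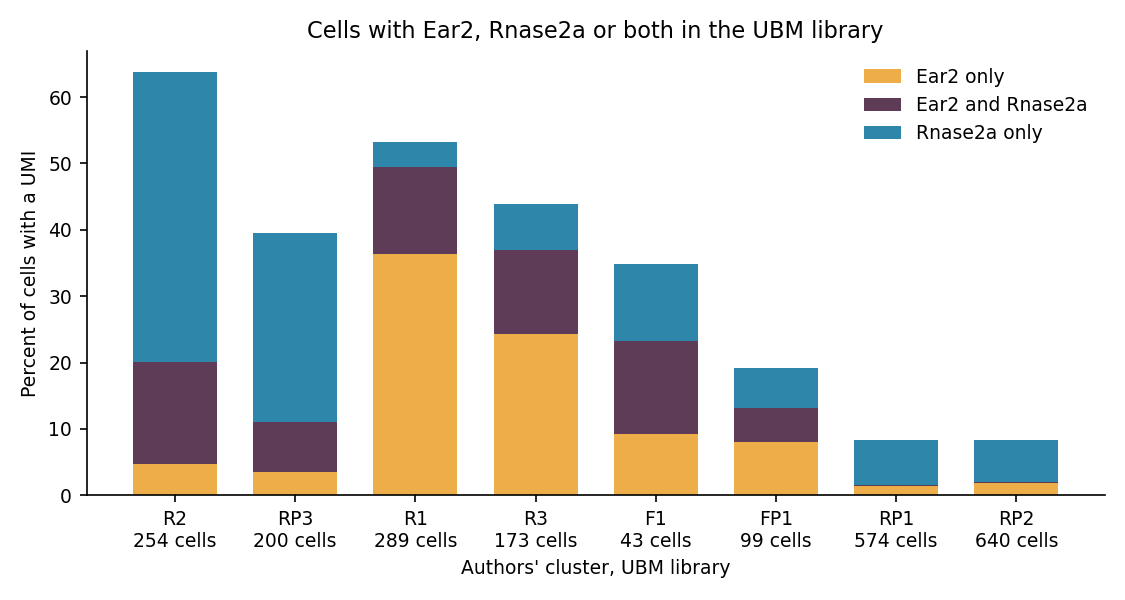
Percent of UBM cells with at least 1 UMI of Ear2 only, of both genes, or of Rnase2a only, in the 8 clusters with at least 20 UBM cells. Rnase2a alone makes up most of the bars of R2 and RP3, Ear2 alone most of the bars of R1 and R3, and cells with both were 15.4% of R2 and 13.1% of R1.

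The overlap was uneven across clusters, and the cluster with the highest level was R2 for Rnase2a but R1 for Ear2. Levels were not fully separate, since R2 also had 142 CPM of Ear2. F1 had 377 CPM of Rnase2a and 134 CPM of Ear2, and RP1 and RP2 were lowest for both genes. Cells with both numbered 39 in R2, 38 in R1, 22 in R3, 15 in RP3, 6 in F1, 5 in FP1, 1 in RP1 and 1 in RP2. In R1, 77.6% of 49 Rnase2a cells had Ear2 but 26.6% of 143 Ear2 cells had Rnase2a. In R2 the shares were reversed, with 26.0% of 150 Rnase2a cells having Ear2 and 76.5% of 51 Ear2 cells having Rnase2a. Rnase2a UMIs per Ear2 UMI were 8.63 in R2 and 8.06 in RP3, but 0.282 in R1 and 0.341 in R3.

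**Figure D3:**
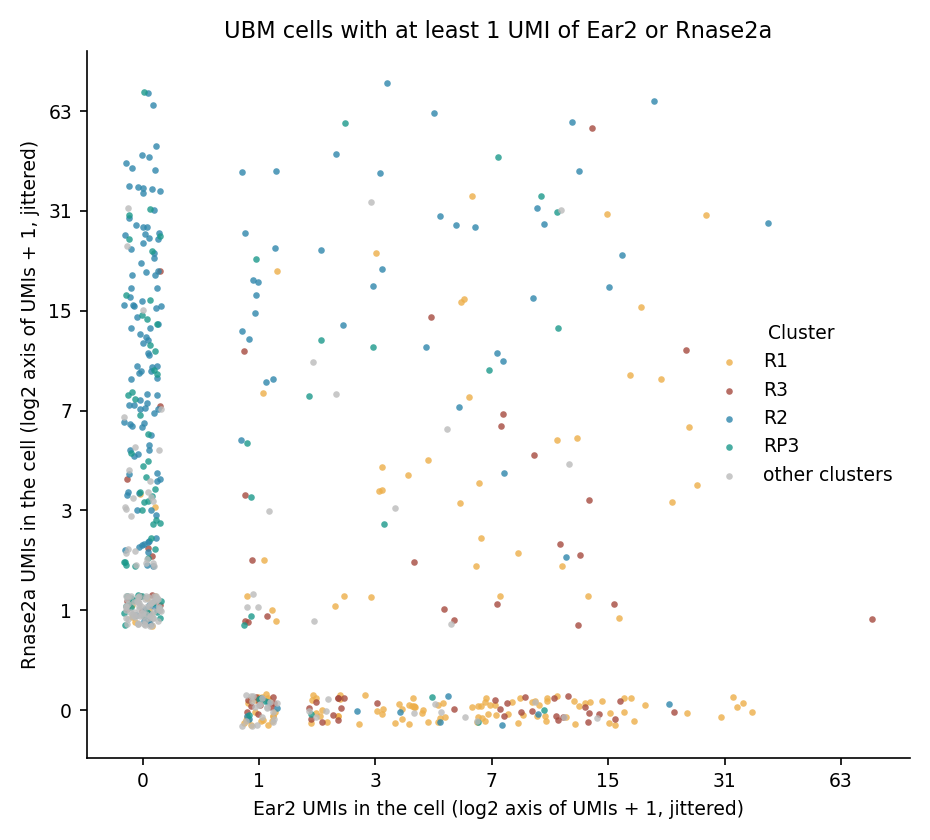
Ear2 UMIs (x) and Rnase2a UMIs (y) in each UBM cell with at least 1 UMI of either, on log2 axes of UMIs + 1 with points jittered, coloured by cluster. R2 and RP3 cells run up the Rnase2a axis and R1 and R3 cells along the Ear2 axis, and 11 cells had over 10 UMIs of both.

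Cells with many UMIs of one gene had the other more often than all UBM cells, although most of them lacked it. Of 66 UBM cells with over 10 Ear2 UMIs, 28 (42.4%) had any Rnase2a, beside 17.9% of all UBM cells and 39.1% of UBM Ear2 cells. Of 125 cells with over 10 Rnase2a UMIs, 55 (44.0%) had any Ear2, beside 14.3% of all UBM cells and 31.1% of UBM Rnase2a cells. Cells with either gene were also deeper, as given above. Only 11 cells had over 10 of both, 6 of them in R2. R2 held 85 of the 125 cells rich in Rnase2a, and R1 held 36 of the 66 cells rich in Ear2. Rnase4 was found in 290 of 408 Rnase2a cells in UBM (71.1%) and in 148 of 325 Ear2 cells (45.5%), beside 40.4% of all UBM cells.

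All 2280 UBM cells had UMIs from the list of 10 macrophage markers, so their presence does not set the cells with Ear2 or Rnase2a apart. The median was 103 marker UMIs per Ear2 cell and 122.5 per Rnase2a cell, beside 68.5 over all UBM cells, which were also shallower. Of the 10 eosinophil markers listed, 3 were in the table (Siglecf, Ccr3 and Cebpe), and their summed level was 8.23 CPM in UBM, 8.36 CPM in PCL and 5.30 CPM in saline. In UBM, 28 of 325 Ear2 cells (8.62%) and 18 of 408 Rnase2a cells (4.41%) had a UMI of one of them, against 95 of all 2280 cells (4.17%). In UBM R2 the eosinophil sum was 0.462 CPM, and in UBM RP3 it was 0. In R1 it was 22.3 CPM in UBM and 27.8 CPM in saline, mostly Cebpe, at 16.9 CPM in UBM and 27.8 CPM in saline. Siglecf in R1 was at 1.24 CPM in UBM and 0 in saline.

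In UBM R1, 140 cells with Ear2 were set against 138 without, from median depths of 7039.5 and 8322.5 UMIs. Cells were classed on all their UMIs, and the levels compared were those after thinning to 2500 UMIs. The class of a cell can therefore still follow its depth. Higher in cells with Ear2 were Rnase2a (311 against 8.70 CPM, from 109 and 3 UMIs), Ccl24, a chemokine for eosinophils, at 7.23 times (5.94 to 8.86), and Retnla, a secreted marker of alternative activation, at 4.81 times (4.54 to 5.10). Tmem176a was 5.08 times, Ccl12 5.11 times and Tmem176b 4.13 times higher. The cytokine gene Il6 was at least 6.90-fold higher, with 21 UMIs in cells with Ear2 and 0 in those without. Chil3, a chitinase-like protein, was 4.54 times higher, but 1 cell held 42.3% of its UMIs. Lower in cells with Ear2 were Spp1 (osteopontin), at 0.0398 times (0.0282 to 0.0546), Gpnmb at 0.111 times and the cathepsin gene Ctsk at 0.0493 times, and the granzyme gene Gzma had 0 UMIs against 71, of which 52.1% were in 1 cell. By the same size rule 92 of 2555 genes (3.60%) were higher and 114 (4.46%) lower in cells with Ear2. In saline R1, 11 of the cells deep enough to thin had no Ear2 UMI before thinning, too few for the same comparison.

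In UBM R2, 146 cells with Rnase2a were set against 100 without, again classed on all UMIs and compared after thinning. Stmn1, a microtubule regulator of dividing cells, was 5.02 times higher in cells with Rnase2a (1.51 to 26.2, from 22 and 3 UMIs), Tmem176b was 3.63 times, the histone gene Hist1h2ap 3.60 times and Lyve1, a marker of tissue-resident macrophages, 2.58 times (1.64 to 4.18). Mrps18b and Snx24 were each 4.34 times, Tmed4 3.60 times and Ptrhd1 3.42 times higher, on at most 25 UMIs each. A single cell held 24% of the Hist1h2ap UMIs, and 1 cell held 20% of the Stmn1 UMIs. Lower was Chchd10, at 0.315 times (0.221 to 0.442). Also lower, on few UMIs, were Nup88, at 0.137 times (from 3 and 15 UMIs), and Camta2, at 0.211 times (4 and 13). Dync1li1 was at 0.266 times (7 and 18). Ear2 was 1.67 times (1.03 to 2.78) and Rnase4 1.11 times (0.913 to 1.36). Cells with Rnase2a were deeper, at a median of 9261 UMIs against 7403.5. By the size rule 33 of 2601 genes (1.27%) were higher and 36 (1.38%) lower. For Rnase4, 228 of the R2 cells deep enough to thin had it before thinning and 18 did not, too few for its genes to be compared.

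Over the 20 groups of at least 20 cells (a library and a cluster), the genes whose log2(CPM + 10) was most like each gene were ranked among 4234 genes by Pearson's r. The groups share 3 libraries, so r describes only these groups. For Rnase2a they were Pdcd1lg2 (PD-L2, r = 0.913), the homeobox gene Msx3 (0.858), the transferrin receptor Tfrc (0.849), the arginine transporter Slc7a2 (0.818) and Ap2m1 (0.810). Msx3 reached 214 CPM in UBM R2 and was at 0 in every PCL and saline group. For Ear2 they were the transcription factor Batf3 (0.841), Mpp6 (0.753), Lrmp (0.749), Etv3 (0.746) and Syngr2 (0.727), all highest in saline R1. Its relative Ear1 had r = 0.723 on few UMIs. For Rnase4 they were Npl (0.909), Ang (0.907), Rcn3 (0.880), Tcn2, a vitamin B12 carrier (0.880), and Gas6, a ligand of macrophage receptors for dead cells (0.874). Rnase2a and Ear2 had r = 0.539 with each other, Rnase2a and Rnase4 0.532, and Ear2 and Rnase4 -0.06. Rnase2a was at most 1.72 CPM in any PCL or saline group, so its r values also reflect the gap between UBM and those libraries.

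**Figure D4:**
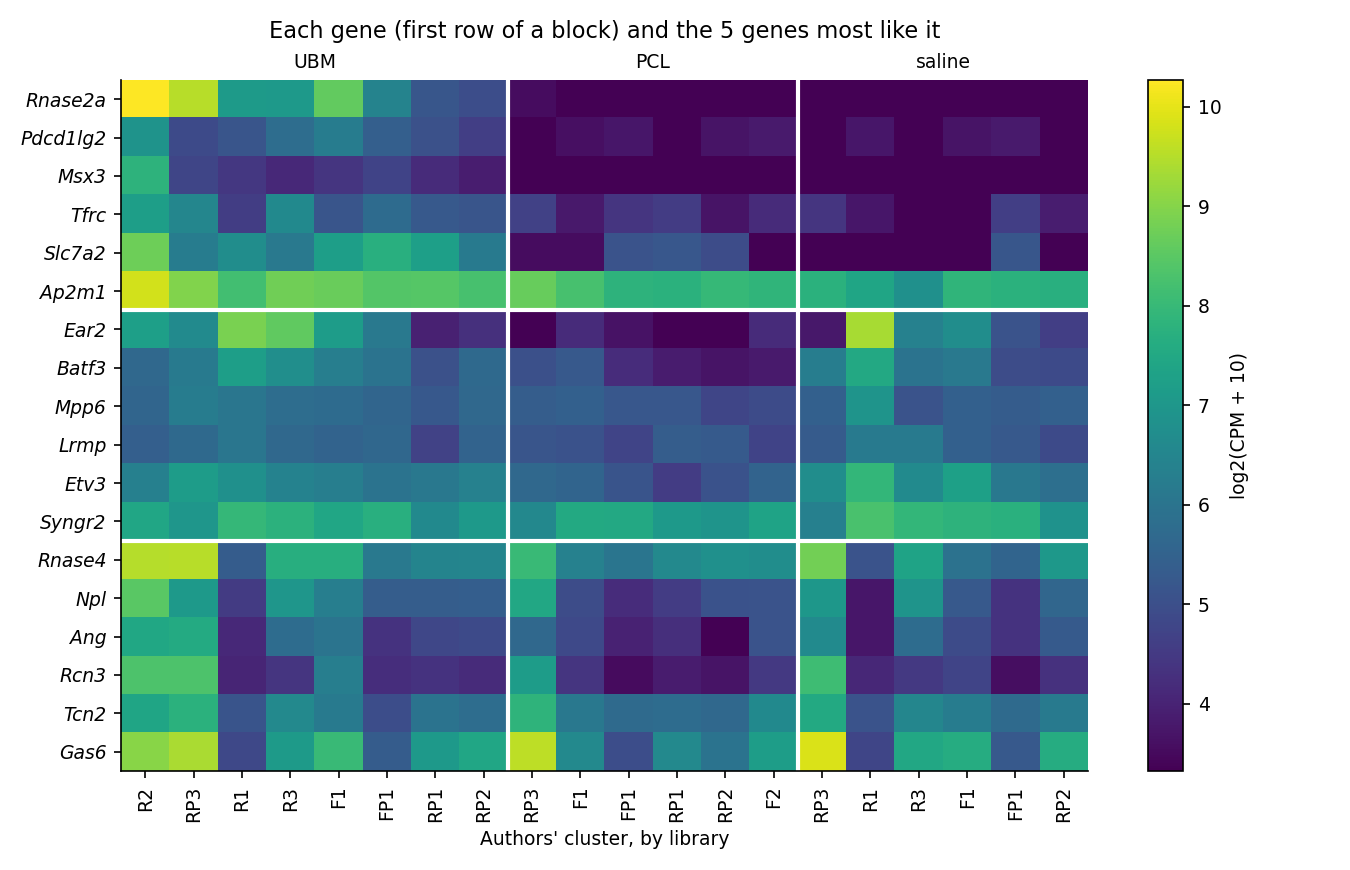
Log2(CPM + 10) of Rnase2a, Ear2 and Rnase4 (first row of each block) and the 5 genes most like each, over 20 groups of at least 20 cells, in columns by library and cluster. Every row of the Rnase2a block is brightest in UBM R2, and all but Ap2m1 are mostly dark in PCL and saline. Every row of the Ear2 block is brightest in saline R1, while within UBM Mpp6 and Etv3 are brighter in RP3 than in R1. The Rnase4 block is brightest in R2 and RP3.

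Of the other family genes, 5 were in the table. Ang had 52.1 CPM in UBM, 12.0 CPM in PCL and 28.6 CPM in saline, so UBM was 1.82 times saline (1.38 to 2.45) and PCL 0.419 times saline (0.303 to 0.587), an order it shared with Rnase4. It was 179 CPM in UBM RP3 and 166 CPM in UBM R2. The annotation gives Rnase4 and Ang 219 shared exonic bases, none in the last 300 bases of either. Rnase6, an antimicrobial family member of macrophages, was 5.90 CPM in UBM, 5.36 CPM in PCL and 20.7 CPM in saline, or 0.285 times saline in UBM (0.193 to 0.428). In R1 it was 17.7 CPM in UBM and 72.8 CPM in saline. Ear1 had 16 UMIs in UBM, 0 in PCL and 3 in saline. Ang2 had 15 UMIs in UBM, 14 of them in R2, and 0 in PCL and saline. Rnase12 had 6 UMIs in UBM, 0 in PCL and 2 in saline.

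The inhibitor Rnh1, which binds these enzymes in the cytosol, was 204 CPM in UBM, 278 CPM in PCL and 168 CPM in saline. UBM was 1.21 times saline (1.08 to 1.36) and PCL 1.65 times (1.47 to 1.86), with 11.0% of the saline UMIs in 1 cell. Plxnb2, a receptor of angiogenin, was 90.8 CPM in UBM, 77.2 CPM in PCL and 88.4 CPM in saline. Tlr2, a reported target of human eosinophil-derived neurotoxin, was 22.2 CPM in UBM, 128 CPM in PCL and 129 CPM in saline, and its adaptor Myd88 was 32.4, 58.1 and 49.8 CPM in that order. Of these 4 genes, 0 were at least 1.5-fold higher and 2 lower in UBM than in saline, beside 9.50% higher and 18.5% lower of 7296 genes measured, and in PCL against saline 1 was higher and 0 lower, beside 12.7% and 11.9% of 7389.

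Genes taken as induced by IL-4 and IL-13 in mouse macrophages were listed with earlier results of these data known. Cd163 on this list, at 332 CPM in UBM and 77.8 CPM in saline, was also listed as a resident-like macrophage marker. Of 20 listed genes measured in UBM against saline, 13 were at least 1.5-fold higher, beside 9.50% of all genes measured. Lower were 5, beside 18.5%. The median log2 ratio, with 10 CPM added as for the order of genes below, was 1.21, beside -0.07 over all genes measured. The highest were Arg1, at 2973 CPM in UBM and 33.4 CPM in saline, and Chil3, at 483 CPM in UBM and 28.6 CPM in saline, although with nothing added the ratios of Slc7a2 (20.8) and Pdcd1lg2 (17.6) were above that of Chil3 (16.9). The lowest were Ccl17, at 4.32 CPM in UBM and 18.5 CPM in saline, and Ccl22, at 0.960 CPM in UBM and 11.1 CPM in saline. In PCL against saline, 7 of 18 were higher, beside 12.7% of all genes, and 8 lower, beside 11.9%, with a median of -0.09, beside 0.04 over all genes. The highest, Arg1 and Chil3, were 1102 and 201 CPM in PCL, against 33.4 and 28.6 CPM in saline. The lowest, Retnla and Mgl2, a C-type lectin, were 20.4 and 28.1 CPM in PCL, against 2449 and 214 CPM in saline. In PCL against UBM, 3 of 18 were higher and 13 lower, beside 17.2% higher and 8.89% lower of 7200 genes measured, with a median of -1.35, beside 0.11 over all genes. Tgm2 (127 CPM in PCL and 41.6 CPM in UBM) and Ccl22 (10.4 CPM in PCL and 0.960 CPM in UBM) were highest there, and Retnla, at 7187 CPM in UBM, and Mgl2, at 373 CPM in UBM, were lowest. Ear2, like Retnla, was lower in PCL than in saline, where 7 of the 18 listed genes measured went the other way. In UBM against saline, Retnla was 2.93 times (2.85 to 3.02) and Ear2 1.09 times (0.959 to 1.25). Rnase2a, unlike Ear2 and Retnla, was absent from the saline counts.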

How the data were processed

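Macrophages of 3 treatments were measured by droplet RNA sequencing with 10x 3' v2 libraries, 1 per treatment, per the labels' protocols. The deposited values are raw UMI counts for 13242 genes in 4374 cells, and a second table gives the condition and cluster of every cell, and the condition names were matched to the labels by meaning. Cell Ranger and Seurat version 2 are named per the submitters' processing notes, which also list hg38 although 12831 symbols (96.9%) were found in a mouse annotation on GRCm38. How cells and genes were filtered is not given in the sources used here. Members and lists were chosen with earlier results of these data known. UMIs were summed per library or cluster and divided by the total, times 1000000 (CPM). CPM have exact Poisson 95% intervals, ratios exact conditional binomial ones and shares exact Clopper-Pearson ones, all for counting error only. With 1 library per condition there was no test. For a count of 0, folds used a floor of 3 counts in that library, and shares 3 cells. Ratios were read in groups of at least 20 cells. Fold calls added 10 CPM and needed 50 CPM in the higher group. Lists used genes of at least 10 CPM and a fold of 1.5 with nothing added, and their medians and order 10 CPM added. Cells were thinned to 2500 UMIs with a fixed seed. For levels in cells with a member against cells without it, the classes were set on all UMIs. Named genes were the 3 members, the other measured family genes, the 5 genes most like each member over library-by-cluster groups, the 8 highest and 4 lowest in cells with a member against cells without it in its richest cluster, and the 2 highest and 2 lowest of each list. The markers given beside a cluster and single list members in other libraries were chosen after their values were seen. Doublets were called with Scrublet (scanpy 1.11.5) as an alternative only, and none were removed otherwise. Trimmed mean of M values factors came from edgeR 4.0.16 in R 4.3.3. The calls were checked on simulated counts with known folds. Promoter windows come from RefSeq on GRCm38.p6, and all 3 members had one.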

Additional observations from a re-analysis of the deposited data

Results flagged for a closer look

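Ear2 in UBM against saline ran in opposite directions in different clusters, and the difference between the clusters was not tested, since each treatment had 1 library. The ratio of UBM to saline was 0.707 in R1, against 2.46 in FP1, 5.04 in R3 and 24.1 in RP3, where saline had 1 UMI.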

How the results depend on the processing

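Of 19 results under the alternatives, 72 values stayed as they were by the rule on counting intervals, 36 moved and 1 reversed. Log2 ratios have 10 CPM added unless stated. Ear2 in UBM against saline, 0.12, was -0.20 without the clusters F2 and R3, so its direction over all cells is not settled. It was 0.89 with equal weight for F1, FP1, RP2 and RP3, which had 20 or more cells in each library. That setting leaves out R1, where Ear2 was highest. Ear2 in PCL against saline, -3.36, was -1.82 with equal cluster weight and -4.73 with 1 CPM added. Ear2 in PCL against UBM, -3.48, was -3.61 with each cell counted alike, -2.72 with equal cluster weight, -3.27 without F2 and R3 and -4.86 with 1 CPM added. Rnase2a in UBM against saline, 4.88, was 4.96 with the trimmed mean of M values, 4.95 with the median of ratios, 4.94 without ribosomal protein genes and Malat1, 4.95 with equal cluster weight, 4.96 without F2 and R3 and 8.16 with 1 CPM added. Rnase2a in PCL against UBM, -4.85, was -4.94, -4.93, -4.91, -4.88 and -4.94 under the same first 5 alternatives in that order, -4.61 with each cell counted alike and -7.92 with 1 CPM added. Rnase4 was 0.52 against 0.85 for UBM against saline with each cell counted alike, and -0.40 against -0.62 for PCL against saline with equal cluster weight. Rnase4 in PCL against UBM, -1.47, was -1.58 with the trimmed mean of M values, -1.59 without ribosomal protein genes and Malat1, -1.31 with each cell counted alike, -1.09 with equal cluster weight and -1.58 with 1 CPM added. Against all other cells, Ear2 in R1 moved to 2.29 within UBM and 3.51 with each cell counted alike (3.05 in the main analysis), Rnase2a in R2 to 3.24 within UBM (4.15), and Rnase4 in R2 to 2.33 within UBM and 2.48 with each cell counted alike (2.64). After thinning, 30.3% of UBM Ear2 cells had Rnase2a (39.1%) and 24.6% of Rnase2a cells had Ear2 (31.1%). With no minimum CPM, genes at least 2-fold lower numbered 257 in UBM against saline (171) and 162 in PCL against saline (95). The causes were not tested. Rnase2a in PCL against saline was not compared, with at most 2 UMIs in either. Scrublet called 17 of 4374 cells (0.389%), 1 of them in UBM, so its alternative says little about doublets. No paired analysis was possible because each treatment has 1 library. Depth limits saline most, where 3 counts are 1.59 CPM.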

Other observations

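Ribonucleases outside the RNase A family had 0 of 13 measured members at least 1.5-fold higher in UBM than in saline, beside 9.50% of all genes, and 7 lower, beside 18.5%. Their median log2 ratio with 10 CPM added was -0.41, beside -0.07 over all genes. The lowest were Pld4, an exonuclease of endosomes, at 129 CPM in UBM and 337 CPM in saline, and Zc3h12a, which degrades cytokine messages, at 23.7 CPM in UBM and 73.6 CPM in saline. Rnaseh2c, at 80.1 CPM in UBM and 66.2 CPM in saline, and Rnaseh2a, at 23.7 CPM in UBM and 20.7 CPM in saline, were highest. In PCL against saline 0 of 13 were higher, beside 12.7%, and 5 lower, beside 11.9%. In PCL against UBM 2 were higher, beside 17.2%, and 1 lower, beside 8.89%, which is near the share over all genes. Among receptor and signalling genes of IL-4 and IL-13, 2 of 13 were higher in UBM than in saline, beside 9.50% of all genes, and 4 lower, beside 18.5%. Il4ra, the shared receptor chain, was 195 CPM in UBM, 96.0 CPM in PCL and 67.3 CPM in saline, while Stat6 was 41.1, 52.8 and 43.4 CPM in that order. Nr2f6, a nuclear receptor that has also been called Ear2, is its own entry in the table, at 24.1 CPM in UBM, 25.5 CPM in PCL and 22.2 CPM in saline.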
